A study of Homo sapiens with 9 samples.

Results

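The transcripts described here are those of the CDK inhibitors and the retinoblastoma (pocket) proteins in A375P, an established human melanoma line that carries a mutant RAF kinase. The genes were chosen by family, though with earlier results of these data known: CDKN1A, CDKN1B, CDKN1C, CDKN2B, CDKN2C, CDKN2D, RB1, RBL1 and RBL2. For each, the array row that the platform annotation pairs with that gene alone was used and, where there were several, the row with the highest mean. Of the 9 genes, 7 had such a row, among 17047 genes in all. CDKN2C had none, and the row of RBL2 also names AKTIP, so neither is analysed here. All 7 passed the filter on dim genes, which left 12785 genes to test.

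Cells were treated with 1 µM PD184352, an inhibitor of the MEK kinases, with 0.4 µM PLX4720, a RAF kinase inhibitor, or with the solvent DMSO, each for 2, 6 or 24 h, and total RNA was labelled with biotin and measured on arrays. There were 9 deposited columns, 1 per treatment and time, each called an array in what follows. The design text speaks of triplicates, and the sources used here do not say whether a column is a single array or an average. No group therefore has a replicate of its own: the tests below take their spread from the difference between the 2 inhibitors or between times, and not from repeated cultures.

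CDK inhibitors are small proteins that bind cyclin-dependent kinases and hold cells in the first gap phase of the cell cycle. The CIP/KIP members p21 (CDKN1A), p27 (CDKN1B) and p57 (CDKN1C) bind cyclin-kinase complexes of several kinds, whereas the INK4 members p15 (CDKN2B), p18 (CDKN2C) and p19 (CDKN2D) bind the cyclin D kinases CDK4 and CDK6. Those kinases phosphorylate the pocket proteins RB1, p107 (RBL1) and p130 (RBL2), which in their unphosphorylated form bind E2F transcription factors and keep genes of DNA replication and mitosis low. In melanoma, signalling through RAF, MEK and ERK sustains cyclin D1, and much of the control of p27 is known to act on the protein and not on its transcript.

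Of the 7 genes measured, RBL1 was the one called against DMSO, at 24 h, when 31.6% of all genes were called, and its promoter is shown because it holds the letters of E2F sites. The sequence is RefSeq's, with its build GRCh38.p14, on the minus strand of chr20:37095948-37096247, which is the 5′ end of the gene: 250 bases before the transcription start and 50 after it. Capitals mark the matches to E2F letters (TTTGGCGC, TTTCCCGC, TTTCGCGC or TTTGCCGC, on either strand).
RBL1: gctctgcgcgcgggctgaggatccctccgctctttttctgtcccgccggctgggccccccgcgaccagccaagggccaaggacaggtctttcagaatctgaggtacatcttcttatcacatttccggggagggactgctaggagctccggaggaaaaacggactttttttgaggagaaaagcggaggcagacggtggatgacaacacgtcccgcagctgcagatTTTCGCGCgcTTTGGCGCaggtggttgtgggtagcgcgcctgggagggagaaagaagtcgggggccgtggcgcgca
The 2 matches begin 26 and 16 bases before the start, do not overlap, and lie on the strand of the gene. The letters occurred in 3.31% of the 35116 promoters in that table, and more than once in 0.145% of them. For comparison, the promoter of CDKN1A, which holds no match to the E2F letters, lies on the plus strand of chr6:36678464-36678763, at a start 2251 bases inside the gene's outermost 5′ end. Capitals there mark GC boxes (GGGCGG on either strand), of which it has 4, the final pair overlapping in 1 base.
CDKN1A: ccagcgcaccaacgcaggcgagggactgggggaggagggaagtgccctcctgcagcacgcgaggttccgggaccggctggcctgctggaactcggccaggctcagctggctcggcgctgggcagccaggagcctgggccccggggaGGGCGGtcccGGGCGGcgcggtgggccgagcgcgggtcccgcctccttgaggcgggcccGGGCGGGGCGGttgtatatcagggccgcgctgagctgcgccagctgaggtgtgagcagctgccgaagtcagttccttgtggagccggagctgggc
GC boxes were found in 45% of all promoters. The table held 11 entries for 8 of the 9 genes, without CDKN1C. By single entries, the measure of that 45%, 7 of the 11 had a GC box. The CDKN1A promoter was 74.3% G or C, where the median of all promoters was 58.7%. RBL1 was the only one of the 8 with an E2F match, 6 had a GC box (CDKN1A, CDKN1B, CDKN2B, CDKN2C, CDKN2D and RBL2), and 0 had a FOXO site (TGTTTAC), which occurred in 3.42% of all promoters. The cell cycle homology region (TTTGAA) was found in 1, RBL2, and in 15.2% of all promoters. The entry for RB1 lies 172699 bases inside the gene and says nothing of its main start. A match is a description of letters and not of binding.

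In the pocket protein genes, RBL1 fell after 24 h with both inhibitors and RB1 did not pass the test at any time. RBL1 encodes p107, a pocket protein that is itself known as an E2F target. Its intensity was 905, 970.2 and 402 with PD184352 at 2, 6 and 24 h, and 962, 834 and 430.0 with PLX4720, against 997, 1010.4 and 907 with DMSO. Both inhibitor arrays of 24 h were thus the lowest of the 9, far below the DMSO array of the same time, while at 2 and 6 h the 4 inhibitor arrays lay under or within the DMSO range. In bulk RNA, fewer cells that express a gene and less of its RNA per cell cannot be told apart.

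The change of RBL1 at 24 h was −1.12 on the log2(intensity + 1) scale (SE 0.11, limma adjusted p = 3.6e-05), which is a 2.18-fold lower level (95% interval 1.85 to 2.57). It was −1.17 on the PD184352 array and −1.07 on the PLX4720 array. Only 2.14% of all genes tested had a lower change. At 2 h it was −0.10 (SE 0.11) and at 6 h −0.17 (SE 0.11), and neither passed (limma adjusted p = 0.878 and 0.535). The change differed between times by limma's F-test (adjusted p = 0.0023), the change at 24 h minus that at 2 h being −1.03 (SE 0.15). Under all alternatives that gave a value the fall at 24 h passed, at −1.22 to −1.04. No alternative took the second row of RBL1, described below, by itself.

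Besides the row used here, number 3904747, RBL1 had a second row, number 3884096, which did not show the fall. Its intensity was 58.8, 69.4 and 43.8 with PD184352 at 2, 6 and 24 h, and 68.5, 82.7 and 53.3 with PLX4720, against 55.7, 57.4 and 48.6 with DMSO. At 24 h the inhibitor arrays lay on either side of the DMSO array, with a mean difference of −0.0078 (log2), and at 6 h both lay above it, by 0.40 on average. This row was dim, below the median intensity of every array, and was not tested. With the intensities of both rows averaged, the change of RBL1 at 24 h was −1.04. The brighter row outweighs the dim one in that mean, so it cannot settle their disagreement.

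RB1 encodes the retinoblastoma protein itself. Its intensity was 369, 404 and 432 with PD184352 at 2, 6 and 24 h, and 383, 341 and 379 with PLX4720, against 436, 408 and 394 with DMSO. The inhibitor and DMSO arrays overlapped, and at 24 h the 2 inhibitors lay on either side of DMSO. The change was −0.21 (SE 0.12) at 2 h, −0.14 (SE 0.12) at 6 h and 0.04 (SE 0.12) at 24 h, with limma adjusted p = 0.720, 0.665 and 0.860. The 95% interval at 24 h was −0.22 to 0.30, and a fall of the size seen for RBL1 lies outside it. This interval rests on the spread between the 2 inhibitors and not on repeated cultures.

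**Figure D1:**
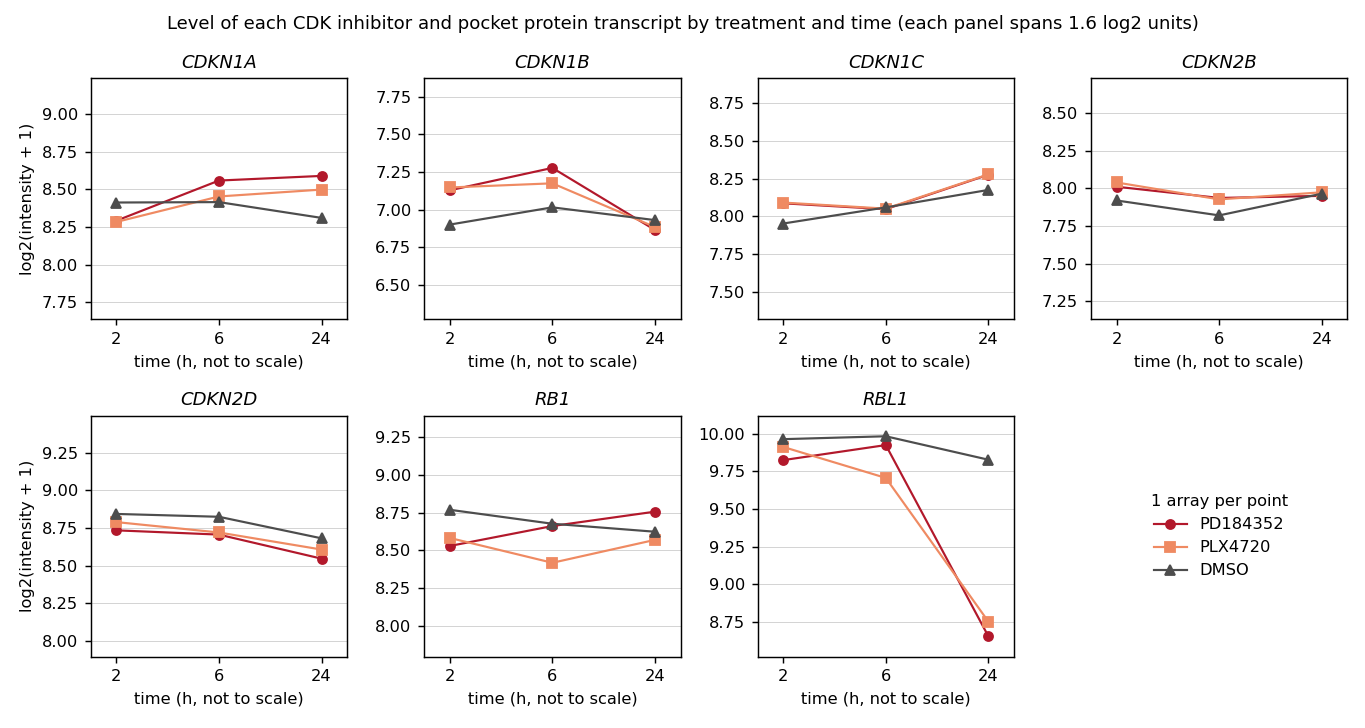
Level of each transcript, as log2(intensity + 1), against time in h, with 1 array per point, for PD184352, PLX4720 and DMSO. Every panel spans the same number of log2 units, so heights compare changes between panels. RBL1 is the only panel in which both inhibitors leave the DMSO line by over 1 log2 unit, and they do so at 24 h.

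Of the CDK inhibitor genes, 0 of 5 tested passed at any time in the comparison with DMSO. Among all genes, limma called 0.086% at 2 h (0.0156% higher and 0.0704% lower), 3.29% at 6 h (0.548% higher and 2.74% lower) and 31.6% at 24 h (12.5% higher and 19.2% lower). Of all 7 family members 0, 0 and 1 were called at the 3 times, the 1 being RBL1, and 1, 1 and 2 had an unadjusted p below 0.05. The median change of the 7 was −0.08, −0.01 and −0.0026, against −0.02, −0.02 and −0.0094 for all genes tested. At 24 h the 5 CDK inhibitors lay between −0.10 and 0.23, and no bound of their 95% intervals went past a 1.35-fold change. These intervals, too, do not rest on repeated cultures.

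CDKN1A encodes p21, the CIP/KIP inhibitor that p53 induces. Its intensity was 313, 376 and 384 with PD184352 at 2, 6 and 24 h, and 311, 350 and 361 with PLX4720, against 340.0, 341 and 317 with DMSO. Both inhibitors thus lay below the DMSO array at 2 h and above it at 6 and 24 h, by more with PD184352 than with PLX4720 at the later times. The change was −0.12 (SE 0.09) at 2 h, 0.09 (SE 0.09) at 6 h and 0.23 (SE 0.09) at 24 h, a 1.18-fold level, and it did not pass (limma adjusted p = 0.786, 0.726 and 0.0764). After quantile normalization the value at 24 h was 0.28 and passed (adjusted p = 0.0298, where the alternatives ranged from 0.0298 to 0.299). The F-test between times did not pass (adjusted p = 0.194).

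CDKN1B encodes p27, the CIP/KIP inhibitor that builds up in resting cells. Its intensity was 139, 154 and 116 with PD184352 at 2, 6 and 24 h, and 141, 144 and 117 with PLX4720, against 119, 128 and 121 with DMSO. All 4 inhibitor arrays of 2 and 6 h lay above all 3 DMSO arrays, and both inhibitor arrays of 24 h lay below them. The change was 0.24 (SE 0.09) at 2 h, 0.21 (SE 0.09) at 6 h and −0.06 (SE 0.09) at 24 h. None of these passed, with limma adjusted p = 0.559, 0.273 and 0.714, although 98.1% of all genes had a lower change at 2 h and 95.9% at 6 h. With the mean of the 3 DMSO arrays as the control, the change at 6 h was 0.28 and passed (adjusted p = 0.0397, where the alternatives ranged from 0.0397 to 0.583). The F-test between times did not pass (adjusted p = 0.235).

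CDKN1C encodes p57, the CIP/KIP inhibitor of an imprinted locus. Its intensity was 271, 264 and 309 with PD184352 at 2, 6 and 24 h, and 272, 264 and 309.5 with PLX4720, against 247, 266 and 288 with DMSO. The 2 inhibitors read almost alike at each time, and all treatments were highest at 24 h. The change was 0.14 (SE 0.08) at 2 h, −0.0100 (SE 0.08) at 6 h and 0.10 (SE 0.08) at 24 h, and none passed (limma adjusted p = 0.739, 0.972 and 0.413). Against the mean of the 3 DMSO arrays the change at 24 h was 0.22 and passed (adjusted p = 0.0378, where the alternatives ranged from 0.0378 to 0.634). That control pools the times, and DMSO cells themselves were higher at 24 h than at 2 h, by 0.22.

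For both INK4 genes the mean of the 2 inhibitors minus DMSO lay between −0.11 and 0.11 (log2) at each time. CDKN2B, which encodes p15, an inhibitor that TGF-beta induces, had intensities of 257, 244 and 246 with PD184352 at 2, 6 and 24 h, and 262, 242 and 250.5 with PLX4720, against 241, 225 and 249 with DMSO. The highest array was 1.16 times the lowest, and the groups overlapped. Its change was 0.11 (SE 0.08) at 2 h, 0.11 (SE 0.08) at 6 h and −0.0026 (SE 0.08) at 24 h, with limma adjusted p = 0.799, 0.602 and 0.987.

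CDKN2D, which encodes p19, had intensities of 425, 417 and 373 with PD184352 at 2, 6 and 24 h, and 442, 421 and 389 with PLX4720, against 459, 453 and 410 with DMSO. It was lower than DMSO of the same time on 6 of 6 inhibitor arrays, by small amounts, and all treatments were lowest at 24 h. The change was −0.08 (SE 0.08) at 2 h, −0.11 (SE 0.08) at 6 h and −0.10 (SE 0.08) at 24 h, and none passed (limma adjusted p = 0.866, 0.615 and 0.419). Both inhibitors share the DMSO array of each time, so the 6 differences are not independent. Against the mean of the 3 DMSO arrays the change at 24 h was −0.21 and passed (adjusted p = 0.037, where the alternatives ranged from 0.037 to 0.75). That control pools the times, and DMSO cells themselves were at −0.16 at 24 h against 2 h.

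**Figure D2:**
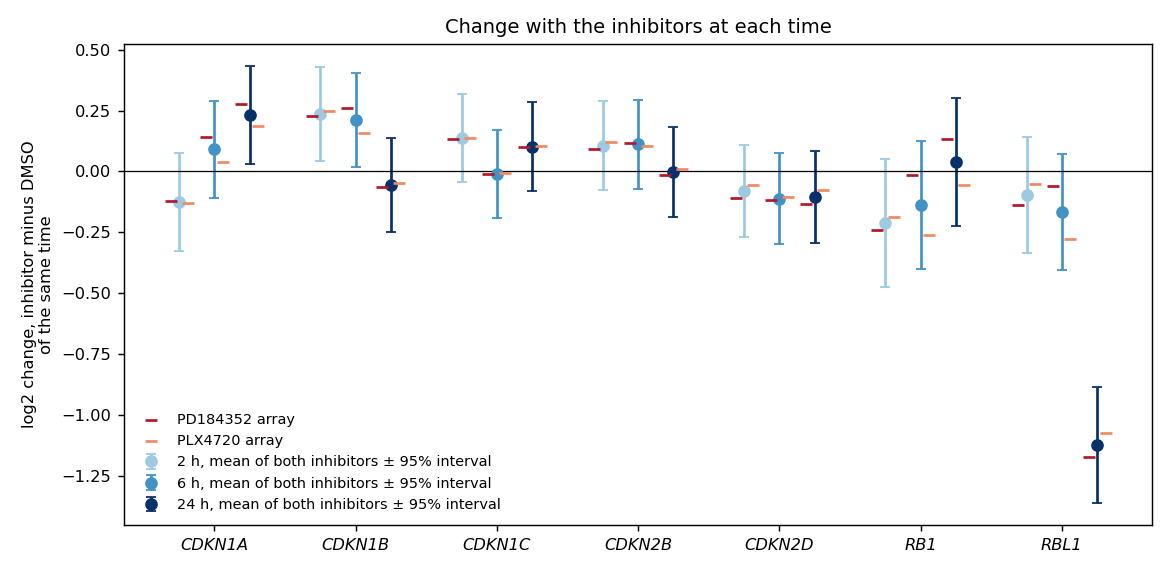
Log2 change of each gene, inhibitor minus DMSO of the same time, at 2, 6 and 24 h. Circles are means of both inhibitors with limma's 95% interval, and dashes are the single PD184352 and PLX4720 arrays. The RBL1 value at 24 h, −1.12, stands apart from the others, which lie between −0.21 and 0.24.

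Averaged over the 3 times, with time as a block, 0 of 7 genes passed for either inhibitor by limma, and 1, RBL1, had an unadjusted p below 0.05, where 0.133% of all genes were called. RBL1 was at −0.46 (SE 0.19, adjusted p = 0.244), in a fit whose spread includes the difference between times, and without DMSO 24 h it was −0.13. The other 6 lay between −0.10 and 0.13. The inhibitors, given at different doses, were also set against each other in that fit, which compares these treatments and not the compounds at 1 dose. Of the 7 genes 0 were called by limma, 0 had an unadjusted p below 0.05, and 0% of all genes were called. The difference, PD184352 minus PLX4720, was 0.13 for RB1 (95% interval −0.07 to 0.32), 0.07 for CDKN1A (interval −0.13 to 0.26) and 0.01 for RBL1 (interval −0.52 to 0.54). For CDKN1C it was −0.0037, with an interval of −0.13 to 0.13. A gap between the inhibitors of up to 1.45-fold for RBL1 and 1.25-fold for the others is inside these intervals. That of RBL1 also holds the difference of its change from DMSO between times. The gaps of RBL1 between the inhibitor arrays were −0.09, 0.22 and −0.10 at 2, 6 and 24 h.

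The difference between times within inhibited cells does not rest on a single DMSO array. At 24 h against 2 h, limma called 4 of the 7 genes, 2 higher and 2 lower, where 41.6% of all genes were called (22.3% higher and 19.2% lower). RBL1 was lower by a change of −1.16 (SE 0.09, adjusted p = 4.0e-06), with −0.14 in DMSO cells. CDKN1A was higher by 0.26 (SE 0.07, adjusted p = 0.0175), with −0.10 in DMSO cells, and CDKN1B was lower, at −0.26 (SE 0.07, adjusted p = 0.0127), with 0.03 in DMSO cells. CDKN1C was higher by 0.19 (SE 0.07, adjusted p = 0.0441), and DMSO cells moved the same way, by 0.22. For CDKN2D the difference was −0.19 (SE 0.07, adjusted p = 0.0547) beside −0.16 in DMSO cells, and it passed with a pseudocount of 16 (adjusted p = 0.0477) and after quantile normalization (0.0333), where the alternatives ranged from 0.0333 to 0.289. The DMSO differences are between single arrays and have no error. Of these genes the F-test between times, which takes the DMSO arrays into account, called 1 of 7, RBL1, where 14.9% of all genes were called, and the other 6 had adjusted p = 0.194 to 0.990.

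With an array left out, the small changes within inhibited cells kept their direction. They were 0.21 to 0.30 for CDKN1A, −0.27 to −0.25 for CDKN1B and 0.186 to 0.191 for CDKN1C. The 6 h arrays enter this difference only through the spread of the fit. The calls on these small changes did not all hold. That of CDKN1A was lost without PD184352 2 h (adjusted p = 0.0576), PLX4720 2 h (0.0627) or PD184352 24 h (0.131), and that of CDKN1B without PLX4720 2 h (0.0501) or PD184352 24 h (0.0637). CDKN1C lost its call without any 1 of the 6 inhibitor arrays (adjusted p = 0.0694 to 0.174) and with no filter on dim genes (adjusted p = 0.0571). RBL1 was called throughout, with changes of −1.21 to −1.12 when an array was left out.

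**Figure D3:**
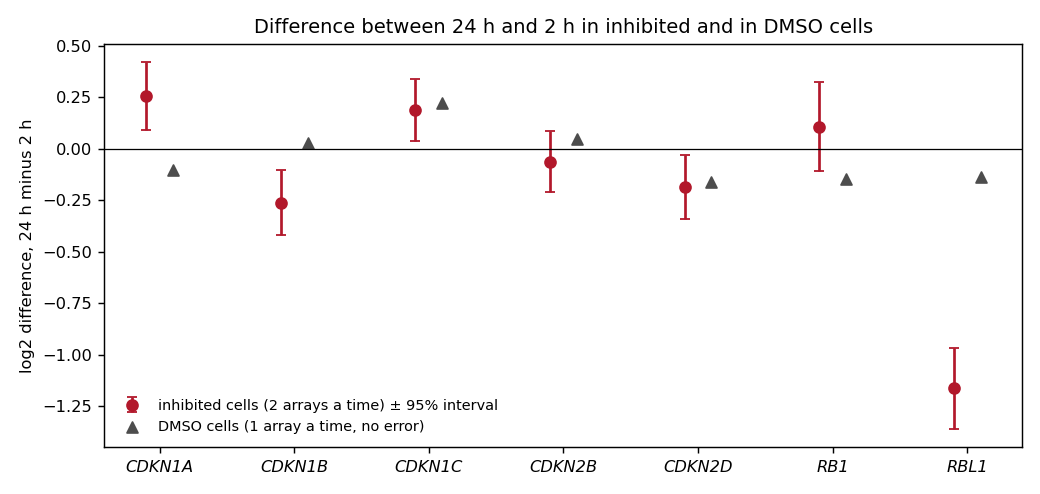
Log2 difference between 24 h and 2 h for each gene. Circles are inhibited cells, 2 arrays at each time, with limma's 95% interval; triangles are DMSO cells, 1 array at each time with no error. RBL1 is at −1.16 in inhibited cells and −0.14 in DMSO cells, while CDKN1C and CDKN2D lie close together in both.

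Genes that act with CDK inhibitors and pocket proteins, or in the turnover of p27 and p21 protein, mostly fell at 24 h. Of the cyclins and kinases that CDK inhibitors bind, 6 of 7 tested fell and 0 rose, with a median of −1.20, against −0.0094 for all genes tested, of which 19.2% fell and 12.5% rose. Cyclin E2 (CCNE2) was at −1.83, cyclin D1 (CCND1) at −1.80 and cyclin A2 (CCNA2) at −1.44. At 6 h, when 2.74% of all genes had fallen, 2 of the 7 had, CCND1 at −1.45 and the cyclin D kinase gene CDK6 at −0.70, and CDK6 was named after its value was seen. Of the genes for the turnover of p27 and p21 protein, 5 of 9 fell and 1 rose at 24 h, with a median of −0.36, beside the same 19.2% lower and 12.5% higher among all genes. The falls were largest for DTL (−2.30), the adaptor of a ubiquitin ligase that acts on p21, SKP2 (−0.97), which recognises p27 for destruction, and its cofactor CKS1B (−0.70), while RNF123, a ligase subunit for p27 in the cytoplasm, rose by 0.40 and was named after its value was seen.

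Of the E2F and DP genes, 8 of 9 tested fell at 24 h and 0 rose, with a median of −0.70, where 19.2% of all genes fell. The list holds partners of the pocket proteins but also E2F6, E2F7 and E2F8, which are not such partners. The falls were led by the repressors E2F8 (−1.30), E2F7 (−1.18) and E2F6 (−0.91). At 6 h 1 of the 9 had fallen, beside 2.74% of all genes, E2F5 at −0.55, named after its value was seen. Of the MuvB core, which joins p107 or p130 to repress cell cycle genes, and its later partners, 5 of 6 fell and 0 rose, with MYBL2 at −1.30, LIN9 at −1.10 and FOXM1 at −1.03. Of the E2F target genes of S phase, 10 of 10 tested fell at 24 h, with a median of −1.21, led by CDC6 (−1.51), CCNA2 and the ribonucleotide reductase subunit RRM2 (−1.40). At 6 h 0 of these 10 passed, and their median was −0.02. The list spanned −1.51 to −0.41 at 24 h, and RBL1 was at −1.12. In RefSeq's promoters, of which 3.31% held an E2F match, 6 of 10 genes of the S phase list had one. So had 4 of 8 E2F and DP genes, 1 of 6 MuvB genes and 2 of 9 turnover genes. Among cyclin and kinase genes 0 of 5 had one. A gene counted if any of its promoters matched, whereas 3.31% is a share of single promoters, so the measures are unlike. The S phase list was itself chosen as E2F targets. CCNA2 and CCNE1 are in both the cyclin and the S phase list.

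Regulators of the CDK inhibitor genes were mixed at 24 h: of 15 tested, 3 rose and 2 fell, with a median of 0.11. That count is near the 31.6% called among all genes and is no result about the list. TFAP2A, an activator of CDKN1A, rose by 1.11 and ID3, which restrains activators of CDK inhibitor genes, by 1.10, while KLF4, another activator of CDKN1A, was at −1.03. MYC, which represses CDKN1A and CDKN2B, was at −0.86, and the FOXO factor FOXO4 rose by 0.59, both named after their values were seen. Of p53 targets other than CDKN1A, 3 of 9 rose and 0 fell, with a median of 0.13, where 12.5% of all genes rose and 19.2% fell. The 3 of 9 called are near the 31.6% of all genes called in either direction. TP53INP1 was at 2.22, TP53I3 at 0.92 and ZMAT3 at 0.36. The p53 antagonist MDM2, named after its value was seen, was at 0.02 and did not pass.

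**Figure D4:**
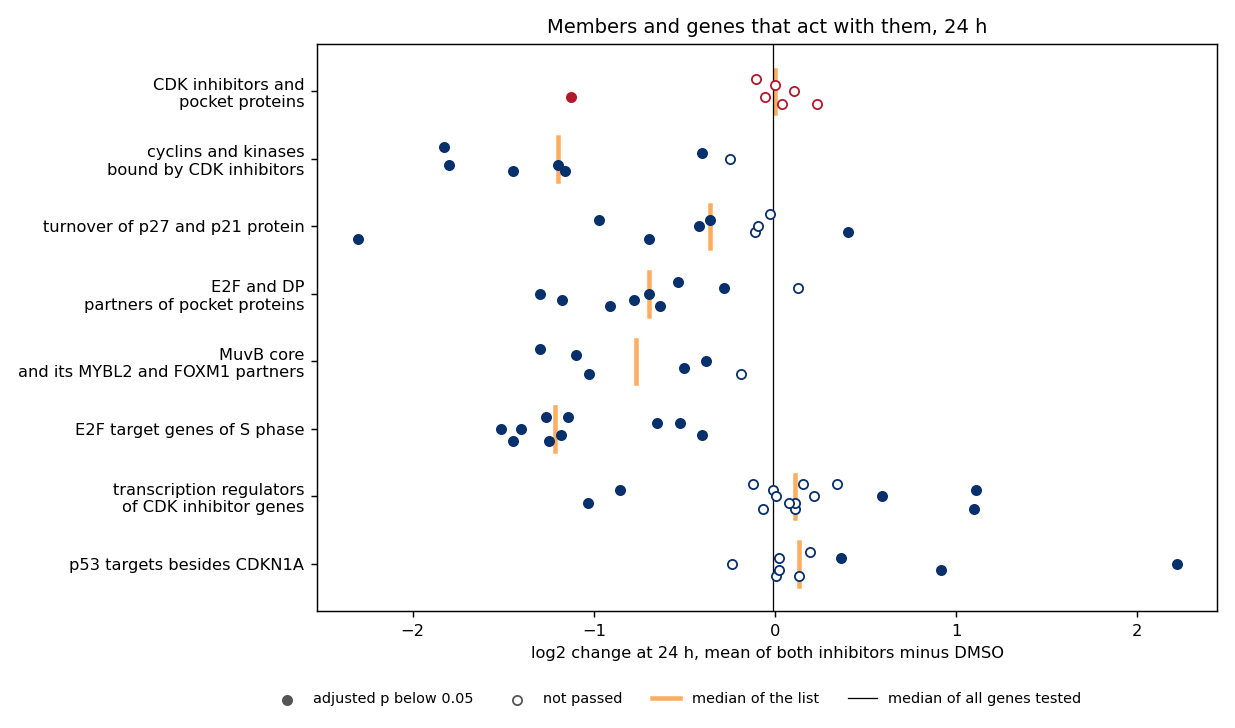
Log2 change at 24 h, mean of both inhibitors minus DMSO, for the 7 family members and for 7 lists of related genes. Each point is 1 gene tested. Filled points passed at an adjusted p below 0.05, orange bars are list medians and the vertical line is the median of all genes tested. The cyclin, E2F, MuvB and S phase lists lie to the left, whereas 6 of 7 family members lie near the line.

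Over the 9 arrays, the transcripts most like RBL1 were CDK2 (Pearson r = 0.998), the replication helicase gene MCM8 (0.997) and TMX4 (0.997). For CDKN1A they were SH2B1 (0.962), PLD2 (0.957) and CTNS (0.954), for CDKN1B PBX4 (0.925), LIPG (0.924) and KMT5C (0.918), and for CDKN1C RAB32 (0.958), MCF2L-AS1 (0.957) and TCEAL4 (0.955). Each was picked as the highest among all genes tested, over only 9 arrays that share treatments and times, and is a description. Within the family, RBL1 ran with CDKN2D (r = 0.874) and against CDKN1C (−0.870), and CDKN1C against CDKN2D (−0.891). CDKN1C was highest and CDKN2D lowest on the 3 arrays of 24 h, DMSO included.

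The label of the cells was checked on marker rows. Of 11 melanocyte markers 9 had a row and 6 were above the median intensity of every array, among them MITF, PMEL and SOX10. MLANA, TYRP1 and GPR143 were not above it on every array. By the same measure 2 of 4 keratinocyte, 1 of 5 fibroblast and 1 of 4 leukocyte markers with a row were above it. No value deposited was 0. TYR and DCT had no row of their own. At 24 h 6 of 8 tested melanocyte markers rose and 0 fell, where 12.5% of all genes rose and 19.2% fell. The largest of these rises were S100B at 0.84, MLANA at 0.67 and EDNRB at 0.57. The summed intensity of the list was 5024 to 7811 on inhibitor arrays, against 5389.9 to 5465.6 on DMSO arrays. Their part in the fall of RBL1 was not tested. Fibroblast markers, 5 of 6 with a row, summed to 442 to 460 on inhibitor arrays and 412 to 439 on DMSO arrays. Keratinocyte markers, 4 of 5 with a row, gave 484 to 517 on inhibitor arrays and 485 to 534 on DMSO arrays. Leukocyte markers, 4 of 5 with a row, gave 194 to 216 on inhibitor arrays and 192 to 211 on DMSO arrays. Of these 3 lists 0 of 7 tested genes passed at 24 h by limma, where 31.6% of all genes were called. The median intensity per array was 98.96 to 102.4, and the 99th percentile 1549.5 to 1654 on inhibitor arrays, against 1681 to 1754 on DMSO arrays.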

How the data were processed

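Intensities on a linear scale were deposited by the authors, 1 column per treatment and time (9 in all). Per the submitters' processing notes, the tools were R 2.8.0, RMA and limma, with no role or order given; how the normalization was done and the build are not given in the sources used here. The number of arrays limits the precision.

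From the deposited intensity values, log2(value + 1) was computed with no further normalization. Of 35446 rows, 19380 had 1 gene symbol, 3339 had several and 12727 were not in the platform table. For 1794 genes with several rows the one with the highest mean was kept. The 25% of genes with the lowest means were left out. Identifiers of 19325 rows were found in RefSeq's gene table (GRCh38.p14), and 0 symbols changed.

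Models were fitted with limma 3.58.1 (R 4.3.3), and p-values were adjusted by Benjamini and Hochberg's method over all 12785 genes and called at an adjusted p below 0.05. The fit by time (3 residual degrees of freedom) set the mean of both inhibitor arrays against the DMSO array, and 24 h against 2 h within inhibited cells. The fit over times (4 residual degrees of freedom) had time as a block. The p-values measure the spread between inhibitors or times, which may be less than that between cultures. Both fits were also run on simulated data with planted changes. The noise there was independent and of each fit's own spread, so the run checks the code and not the spread between cultures.

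The genes and lists were chosen with earlier results of these data known. Named besides the family were the 3 largest called changes of each list at 24 h and the 3 genes most like each member called in any test. Alternatives were other filters on dim genes, a pseudocount of 16, quantile normalization, averaged rows, an intensity trend, the mean of DMSO arrays as control, inhibitor arrays alone and leaving out each array.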

Additional observations from a re-analysis of the deposited data

Results flagged for a closer look

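The change of RBL1 differed between times by limma's F-test: the change at 24 h minus that at 2 h was −1.03 (adjusted p = 0.0023), and at 6 h minus 2 h −0.07. Both inhibitors showed it, with −1.17 on the PD184352 array and −1.07 on the PLX4720 array at 24 h, against −0.14 and −0.05 at 2 h. Each time has 1 DMSO array, which both differences share.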

How the results depend on the processing

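RBL1 at 24 h, between times and in inhibited cells kept its direction and its call under all alternatives that gave a value. No alternative took its dim second row by itself. The count of members called at 24 h was 1, but 2 after quantile normalization and 3 with the mean of the DMSO arrays as control. That control, which pools the times, also raised the count at 6 h to 1. The cause of these differences was not tested. In inhibited cells at 24 h against 2 h the count was 4, but 5 with a pseudocount of 16 and after quantile normalization, and 3 with no filter or with 50% of genes left out. Leaving out an array gave counts of 1 to 4 there, and no change in the other counts. The reversals were all of small values that did not pass. After quantile normalization these were RBL1 at 2 h (0.0068), CDKN1C at 6 h (0.032), CDKN2B at 24 h (0.031) and CDKN1C between inhibitors (0.0078). With the mean of the DMSO arrays they were CDKN2B (0.061) and RB1 (−0.027) at 24 h, and with averaged rows RBL1 between inhibitors (−0.010). Leaving out an array moved CDKN2B at 24 h between −0.014 and 0.0092, RB1 at 24 h between −0.054 and 0.13, CDKN1A with either inhibitor between −0.017 and 0.16 and CDKN2D between times between −0.053 and 0.0071. Between inhibitors it moved CDKN1B between −0.029 and 0.083, CDKN1C between −0.025 and 0.018, CDKN2B between −0.033 and 0.0080, and RBL1 between −0.14 and 0.22. CDKN1B has no value with 50% of genes left out, and no change at a time can be had without its DMSO array. No paired analysis was possible because the labels give no replicate numbers to pair cultures by; time was the block in the fit over times. In that fit RBL1 with either inhibitor was between −0.65 and −0.13 when an array was left out. With 1 array per group, the culture, the array and the treatment cannot be told apart.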
